A study of Plutella xylostella with 12 samples.

Results

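The genes described here are 53 loci of the diamondback moth, Plutella xylostella, whose RNA level was lower in each library of cold-kept larvae than in every library of larvae kept warm. They were chosen by their measured levels in CPM (the total gene reads of a gene divided by all gene reads of its library, times 1000000). A member carries a locus identifier, averaged below 500 CPM over all 12 libraries and averaged at least 5 CPM at 25 °C. Its lowest 25 °C library stood above its highest 10 °C library, and its 25 °C mean was at least 3 times its 10 °C mean. Of 19364 features in the tables, 18890 locus identifiers were considered after 5 had been left out by name. Of these, 7837 met both level limits, 101 of the 7837 (1.29%) did not overlap between the temperatures in this direction, and 53 of the 101 also met the limit on the ratio. These 53 are 0.676% of the 7837. Since the comparison of 10 °C with 25 °C chose the genes, their difference with temperature is a description and has no test. The mirrored rule, for genes higher in every cold library, found 110 of 9640, or 1.14%.

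Each library holds RNA from whole bodies of 8 pooled larvae of the fourth instar, halfway through it, taken from a laboratory population reared on cabbage. All larvae grew at 25 °C until early in the third instar. The groups were females moved to 10 °C, males moved to 10 °C, females kept at 25 °C and males kept at 25 °C, with 3 libraries each. How long larvae took to reach the sampled stage at each temperature is not stated in the labels.

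Insects are ectotherms, so temperature sets the pace of feeding, digestion, growth and moulting, and a caterpillar in the middle of its last instar normally feeds and stores heavily. Whole-body RNA mixes gut, fat body, muscle, epidermis, gonads and nerve tissue, and a lower level can come from fewer cells of a tissue or from less RNA per cell. These cannot be told apart here. None of the 53 genes has a symbol or product name in the sources used here. In a RefSeq gene table of another assembly, ilPluXylo3.1, 34 of the 53 are listed, all 34 as protein-coding. Of the 15027 genes tested, 9666 are listed there. No role is therefore given to any of the 53, and they are described by level, variation, gene structure, kinds of reads and neighbours.

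Libraries held from 10183278 to 30106219 gene reads, and no pair of libraries within a group matched within counting error. Scaling by the trimmed mean of M-values (TMM) gave factors between 0.9435 and 1.649 for the cold libraries and between 0.5879 and 1.173 for the warm ones. Plain CPM and TMM-scaled CPM therefore differ. On the TMM scale the log2 change with cold had a median of 0.23 over the 15027 tested genes. Some 10 °C libraries went against their sex labels. Over 395 genes at least 16-fold higher in males at 25 °C, none of which is among the 53, the median level was 33.6% of the male 25 °C mean in the library labelled female 10 °C replicate 3 and 0.0969% in that labelled male 10 °C replicate 3. The other cold libraries labelled female were at 0% and 8.85% (replicates 1 and 2), and those labelled male at 34.8% and 55.5% (replicates 1 and 2). Warm females were at 0%, 2.15% and 0% (replicates 1, 2 and 4). Female 10 °C replicate 2 was kept under its label throughout. Without both replicate 3 libraries of 10 °C the membership rule gave 50 genes, 48 of them among the 53. Of genes with a known tissue, the gut-type protease gene Tryp_SPc1 averaged 3500 ± 2939 CPM at 10 °C and 4092 ± 1343 CPM at 25 °C, and the fat-body storage protein gene PxAry1 averaged 13220 ± 12800 and 10520 ± 2894 CPM at those temperatures (SD, n = 6 each). Actin averaged 9566 ± 4159 CPM at 10 °C and 3439 ± 3508 CPM at 25 °C. The further gut gene Gss averaged 169 ± 301 CPM at 10 °C and 133 ± 202 CPM at 25 °C. The storage protein gene PxAry2 averaged 12630 ± 11610 and 9869 ± 3181 CPM at those temperatures, and PxSP1 3811 ± 2560 and 3728 ± 4123 CPM. The 10 °C and 25 °C libraries overlapped in each of these genes.

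Summed over the 53 genes, the level was 884 ± 321 CPM at 10 °C and 3879 ± 584 CPM at 25 °C (SD, n = 6 each). The 10 °C mean was between 0.101% and 33.1% of the 25 °C mean, and the median log2 ratio of the means was -2.45. In the quasi-likelihood fit on TMM-scaled counts the log2 change with cold ran from -9.71 to -2.29 in females and from -11.16 to -1.75 in males, so it was below 0 for all 53 genes in both sexes, a direction that the rule fixes. For 11 genes the 25 °C mean was at least 10 times the 10 °C mean. In 13 genes the lowest 25 °C library was at least 2 times the highest 10 °C library, and in 14 genes this gap was below 1.2-fold.

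**Figure D1:**
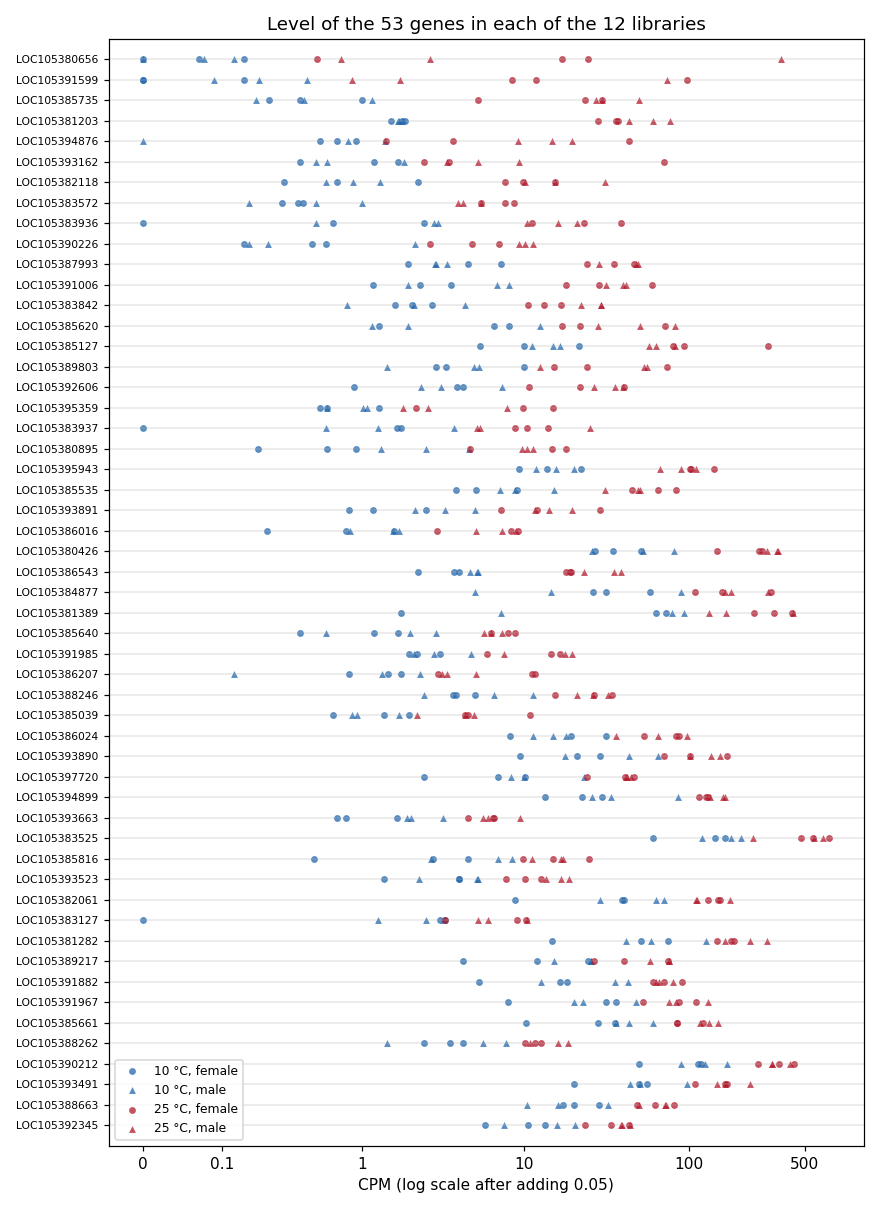
Level of each of the 53 genes in the 12 libraries in CPM, on a log scale after adding 0.05 (circles, female; triangles, male; blue, 10 °C; red, 25 °C), with the lowest ratio of 10 °C to 25 °C means at the top. Red points lie to the right of blue points in every row, while the spread within a colour runs from narrow, as for LOC105381203 at 10 °C, to very wide, as for LOC105380656 at 25 °C.

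LOC105381203 (scaffold NW_011952052, 1220204 to 1226260, plus strand, a model of 4 exons and 1641 bp of exon) had the widest gap. It was at 1.78, 1.87 and 1.53 CPM in females and 1.79, 1.70 and 1.68 CPM in males at 10 °C. At 25 °C it was at 36.3, 28.2 and 37.0 CPM in females and 60.6, 76.8 and 43.5 CPM in males. The 10 °C libraries thus lay within a narrow band, and the lowest 25 °C library was 15.1 times the highest 10 °C library. The 10 °C mean was 3.67% of the 25 °C mean in plain CPM. In the fit on TMM-scaled counts, where the difference was larger, the log2 change was -5.40 ± 0.31 (SE, both sexes).

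LOC105387993 (NW_011952205, 283580 to 287689, plus strand, 6 exons) showed a similar pattern at 1.95, 7.27 and 4.52 CPM in females and 2.89, 3.40 and 2.86 CPM in males at 10 °C, against 24.1, 46.4 and 35.1 CPM in females and 28.5, 49.1 and 47.9 CPM in males at 25 °C. Its 10 °C mean was 9.90% of its 25 °C mean. The next gene on the scaffold, LOC105387992, starts 100 bp after it on the opposite strand and is not a member. It too was lower in every 10 °C library, at most at 234 CPM there and at least at 260 CPM at 25 °C, with means of 165 and 476 CPM.

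LOC105385735 (NW_011952143, 540665 to 543274) ran from 0.189 to 1.16 CPM at 10 °C with a median of 0.407, and from 5.22 to 49.9 CPM at 25 °C with a median of 28.4. Its lowest 25 °C library was female replicate 2. LOC105382118 (NW_011952067, 907145 to 910385) had a median of 0.784 CPM at 10 °C (0.306 to 2.25) and of 12.7 CPM at 25 °C (7.63 to 31.0). Its neighbour LOC105382119, which is not a member, averaged 2.12 CPM at 10 °C and 11.9 CPM at 25 °C. The 10 °C library of that neighbour at 7.95 CPM, female replicate 2, overlapped the 25 °C range of 4.68 to 21.4 CPM.

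LOC105383572 (NW_011952093, 775762 to 778055) was scarce and even: 0.168 to 0.997 CPM at 10 °C (median 0.399) and 3.94 to 8.71 CPM at 25 °C (median 5.45). Its 10 °C mean was 7.80% of its 25 °C mean. It lies 2 genes away from Tryp_SPc1, and the gene between them, LOC105383571, averaged 93.4 CPM at 10 °C and 70.3 CPM at 25 °C with overlapping libraries. LOC105391006 (NW_011952324, 215988 to 217974) had medians of 2.95 CPM at 10 °C and 35.6 CPM at 25 °C, and LOC105390226 (NW_011952288, 276426 to 278079) of 0.353 and 8.14 CPM. Without male 10 °C replicate 2, its highest cold library at 2.14 CPM, the 25 °C mean of LOC105390226 was 23.3 times its 10 °C mean, against 12.0 times with it.

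Members with the most extreme ratios were nearly silent in the cold and uneven at 25 °C. LOC105380656 (NW_011952045, 1519532 to 1521035, minus strand) had 7 reads in all over the 6 cold libraries, with 0 reads in female replicate 2 and male replicate 3. A count of 0 allows up to 3 reads, or 0.295 CPM in the shallower of these libraries, which covers counting error only. At 25 °C the gene was at 17.0, 0.509 and 24.4 CPM in females and 2.65, 357 and 0.732 CPM in males. The mean therefore rests on male 25 °C replicate 2: the 25 °C mean was 994.5 times the 10 °C mean with that library and 134 times without it. Its neighbour LOC105380700 was highest in the same library, at 42.3 CPM, and below 3 CPM in the other 11 libraries.

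LOC105391599 (NW_011952350, 275651 to 279541, plus strand) had 16 reads over the 6 cold libraries. It was at 8.48, 96.5 and 11.8 CPM in females and 0.860, 73.6 and 1.75 CPM in males at 25 °C. The 25 °C mean was 220 times the 10 °C mean, 132 times without female 25 °C replicate 2 and 368 times without male 10 °C replicate 2. The genes around it were near 0 in the cold as well and peaked in the same or another female 25 °C library. LOC105391591 had 0 reads over all 6 cold libraries and 13837 reads at 25 °C, where it was at 3.30, 804 and 57.2 CPM in females and 0, 32.1 and 0 CPM in males. LOC105391598 had 88 reads in the cold and 10610 at 25 °C, of which most came from female replicate 2, at 629.6 CPM. LOC105391588 and LOC105391589 had 1 read each in the cold, and stood highest at 192 CPM in female replicate 4 and at 137 CPM in female replicate 2. None of these 4 is a member, because in each at least 1 warm library lay at or below the highest cold library. This set of neighbours was picked after their values had been seen.

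Of the 53 genes, 8 varied more than 5-fold among the 25 °C libraries, and 4 of these 8 were highest in female 25 °C replicate 2. LOC105394876 (NW_011952024, 339298 to 340123) ran from 0 to 1.40 CPM at 10 °C and from 1.41 to 43.2 CPM at 25 °C, so that it barely cleared the rule. LOC105393162 (NW_011952446, 210443 to 213171) ran from 0.393 to 1.82 CPM at 10 °C and from 2.45 to 70.2 CPM at 25 °C. Only female 25 °C replicate 4 exceeded 10 CPM, and without it the 25 °C mean was 4.63 times the 10 °C mean, against 15.2 times with it. At the other end, 10 genes varied less than 2-fold among the 25 °C libraries. LOC105394899 (NW_011952599, 31975 to 36107) was at 114 to 164 CPM there, against 13.4 to 85.5 CPM at 10 °C. LOC105391882 was at 60.6 to 90.5 CPM at 25 °C, against 5.30 to 42.7 CPM at 10 °C, and LOC105382061 at 110 to 178 CPM, against 8.84 to 70.0 CPM. LOC105385640 was at 5.66 to 8.81 CPM at 25 °C and at 0.393 to 2.89 CPM at 10 °C. In LOC105394899, LOC105391882 and LOC105385640 the highest cold library was male 10 °C replicate 1.

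The genes with the most reads had smaller ratios. LOC105383525 (NW_011952092, 406266 to 407232, 2 exons) was at 60.0 to 206.5 CPM at 10 °C with a median of 154, against 244 to 703 CPM at 25 °C with a median of 568. Per length of transcript it was also the most abundant of the 53, at 243 ± 80.1 TPM at 10 °C and 739 ± 227 TPM at 25 °C (reads per transcript length, scaled to the same total in every library; SD, n = 6 each). LOC105390212 (NW_011952288, 206630 to 211156, 7 exons) followed, with 130 ± 34.2 TPM at 10 °C and 340 ± 41.2 TPM at 25 °C. LOC105381389 (NW_011952012, 2299899 to 2303114) averaged 59.6 ± 42.6 TPM at 10 °C and 282 ± 125 TPM at 25 °C. Its cold libraries fell into separate ranges, at 1.77 CPM in female replicate 2 and 7.24 CPM in male replicate 3, against 63.3 to 92.8 CPM in the other 4. LOC105384877, a single-exon gene, was at 5.02 to 89.7 CPM at 10 °C and at 109 to 314 CPM at 25 °C. LOC105381282, also of a single exon, was at 14.8 to 126 CPM at 10 °C and at 146 to 294 CPM at 25 °C, and LOC105393491 at 19.9 to 97.2 and 109 to 234 CPM. The median member had 5.58 TPM at 10 °C and 24.1 TPM at 25 °C. All tested genes had a median of 2.88 TPM at 25 °C, but the rule itself asks for a minimum level there.

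The limits of the rule cut through a continuous range of genes. Just inside the limit on the ratio of 25 °C to 10 °C means were LOC105392345, at 3.02, and LOC105388663, at 3.095. Just outside were LOC105398089, at 2.99, and LOC105381242, at 2.98, the nearest of 48 genes kept out by that limit alone. The lowest 25 °C means inside were 5.204 CPM for LOC105385039 and 5.90 CPM for LOC105383572, and the highest outside was 4.17 CPM for LOC105398398, 1 of 13. The narrowest gaps inside were 1.005-fold for LOC105383127 and 1.01-fold for LOC105394876. In LOC105380585 and LOC105395772, with ratios of 6.71 and 4.06, the lowest 25 °C library was 0.978 and 0.970 times the highest 10 °C library. They are the closest of 168 genes kept out by overlap alone.

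The cold libraries were not equally low. With each gene set to 100% at its own 25 °C mean, the cold females had medians over the 53 genes of 17.7%, 7.76% and 15.4%, and the cold males of 20.1%, 25.3% and 15.3%, in the order of their replicate numbers. The warm females had 83.0%, 75.4% and 114% (replicates 1, 2 and 4), and the warm males 91.2%, 105% and 99.9%. Female 10 °C replicate 2 was the lowest cold library for 30 of the 53 genes, and male 10 °C replicate 2 the highest for 23. On the TMM scale these counts were 33 and 33. Female 25 °C replicate 2 was the lowest warm library for 25 genes in CPM and 35 in TMM-scaled CPM. Female 10 °C replicate 2 and female 25 °C replicate 2 have the highest TMM factor of their temperature, and male 10 °C replicate 2 the lowest at 10 °C. The part of these library differences in the values of single genes was not tested.

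**Figure D2:**
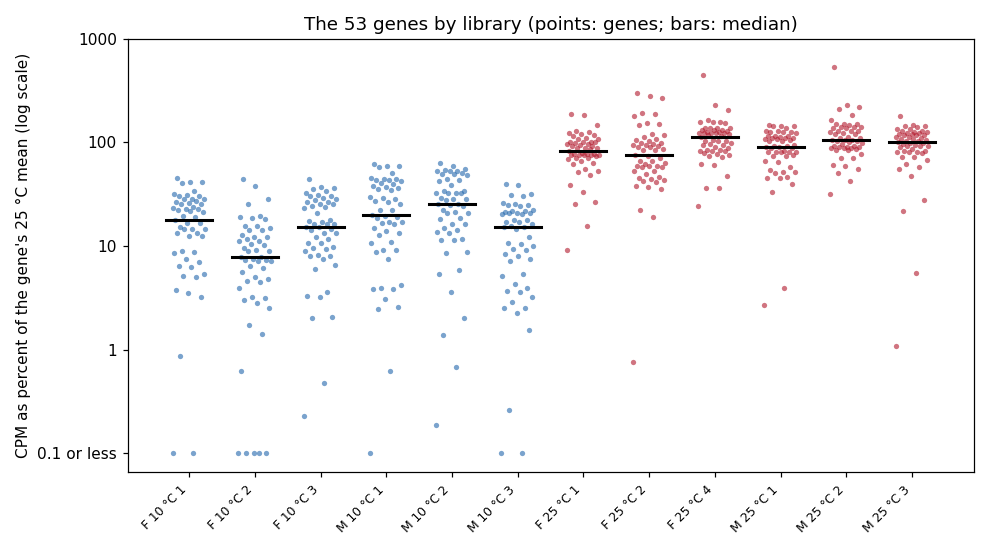
CPM of each gene as a percent of its own 25 °C mean (log scale, values of 0.1 or less drawn at 0.1) in the 6 libraries of 10 °C and the 6 of 25 °C, with 53 points a library and the median as a bar (F, female; M, male). The 10 °C medians lie between 7.76% and 25.3%, and female 10 °C replicate 2 is the lowest.

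Whether the level of these genes depended on sex was tested within each temperature. The rule did not compare the sexes, but it asked every warm library of both sexes to exceed every cold library. Genes low in warm larvae of either sex, or high in cold larvae of either sex, were thus less able to be members. The shares of members and of all tested genes at either temperature therefore do not compare like with like. No member passed the test between females and males at either temperature, nor that of a sex difference in the cold response. The labels give separate pools as replicates, so p-values measure the spread between pools within the labelled groups. All groups share an estimate of this spread in the main fit. The 10 °C libraries that went against their sex labels therefore enter it at both temperatures. At 25 °C, 0 of 53 passed (edgeR quasi-likelihood test over all 15027 genes, Benjamini-Hochberg adjusted p from 0.151 to 0.9996), where 0.0% of all tested genes passed. At an unadjusted p below 0.05 there were 2 of 53 members, against 22.4% of all tested genes. Simulated counts were drawn as independent libraries with the fitted spread. They gave calls for 25 of 100 genes set 4-fold apart and for 88 of 100 set 16-fold apart. Most differences of 4-fold would thus not have been called. No simulated library went against its label, and recovery in the real data was lower. The fit called none of the 395 genes that were at least 16-fold higher in males in the 25 °C libraries alone. Without female and male 10 °C replicate 3 it called 550 of 15353 genes, 0 of them members. DESeq2 also called 0 members at 25 °C, of 2041 genes called in all. A fit of the 25 °C libraries alone called 0 members and 4.74% of the genes it tested.

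The members at an unadjusted p below 0.05 at 25 °C were LOC105381203 and LOC105386543 (NW_011952163, 105193 to 107344). Only 0.316% of the reads of LOC105386543 mapped uniquely, so its values cannot be assigned to that locus with certainty. LOC105381203 averaged 33.8 ± 4.90 CPM in females and 60.3 ± 16.7 CPM in males, and the groups did not overlap, as in 7 of 53 members higher in males (13.2% of all tested genes) and 1 higher in females, LOC105383572 (7.34%). On TMM-scaled CPM these counts were 3 of 53 higher in males (11.8% of all tested genes), with neither LOC105381203 nor LOC105386543 among them, and 1 higher in females, LOC105385535 (9.71%). The test did not call LOC105381203 (log2 female minus male -0.90 ± 0.37, SE, n = 3, edgeR adjusted p = 0.175). LOC105386543 was at 19.2, 17.9 and 19.1 CPM in females and 35.3, 38.8 and 23.1 CPM in males (log2 -0.88 ± 0.34, edgeR adjusted p = 0.151). Both were called as lower in females when female 25 °C replicate 4 was left out, where 1.58% of all tested genes were called in that direction. LOC105381203 then had a log2 difference of -1.24 (edgeR adjusted p = 0.0496) and LOC105386543 of -1.16 (edgeR adjusted p = 0.0491). The largest differences belonged to the uneven genes, LOC105380656 (-2.92 ± 1.76) and LOC105393162 (2.40 ± 1.24), with edgeR adjusted p of 0.357 and 0.281. Summed over the 53 genes the level at 25 °C was 3791 ± 489 CPM in females and 3966 ± 769 CPM in males (SD, n = 3 each). The sum was lower in males once male 25 °C replicate 2 was left out (female minus male 206 CPM, against -174 CPM with it).

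At 10 °C, 0 of 53 genes passed, as did 0.0% of all tested genes, with 8 members and 0.799% of all tested genes at an unadjusted p below 0.05 in edgeR. The count of members at that unadjusted p ran from 2 without female 10 °C replicate 2 to 19 without male 10 °C replicate 3. Over all tested genes the counts in these settings were 32 of 15287 and 589 of 15396. DESeq2 called 0 members and 0 genes. The log2 difference between females and males was below 0 for 49 of the 53 genes, with a median of -0.80. Of all tested genes 51.9% lay below 0, with a median of -0.03. Over the 7822 tested locus genes that met both level limits the median was -0.16. The members' median moved with single libraries: leaving out female 10 °C replicate 2 gave a median over the 53 genes of -0.50, and leaving out male 10 °C replicate 2 gave -0.35. It was -1.20 without the pair of libraries that went against their sex labels, and 0 members were called then too. LOC105380895 (NW_011952048, 920089 to 922687) had the largest difference. It was at 0.592, 0.196 and 0.919 CPM in the libraries labelled female and 4.58, 1.32 and 2.52 CPM in those labelled male (log2 -2.43 ± 0.75, edgeR adjusted p = 0.9999). These groups did not overlap. In all, 4 of 53 genes had their 3 female libraries below their 3 male ones at 10 °C in CPM and 3 of 53 in TMM-scaled CPM, against 0.646% and 1.43% of all tested genes, and 0 of 53 lay the other way, against 3.71% and 2.7%. Without the libraries that went against their sex labels, which leaves 2 of each sex, 24 of 53 genes lay lower in females in CPM and 25 of 53 in TMM-scaled CPM, against 10.8% and 16.3% of all tested genes. None of the 53 lay the other way then, against 21.7% and 16.2%. The libraries left include female 10 °C replicate 2, the lowest cold library for 30 of the 53 genes, and male 10 °C replicate 2, the highest for 23. The members share such library differences, so their count is not a count of separate observations, and its cause was not tested.

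A sex difference in the cold response, which the design of the series addresses, was called for 0 of 53 genes and for 0.0% of all tested genes in edgeR, while DESeq2 called 0 members among 15 genes. The rule asks every cold library of both sexes to lie below every warm one, so a gene that changed in 1 sex alone could not be a member, and the test bears only on unequal changes in the same direction. At an unadjusted p below 0.05 there were 2 of 53 members and 8.99% of all tested genes. The log2 change was more negative in females for 41 of the 53 genes, with a median difference of -0.65, and for 61.4% of all tested genes, with a median of -0.22. LOC105380895 had the lowest value, with -5.28 ± 0.83 in females and -2.55 ± 0.72 in males (difference -2.72 ± 1.01, SE, edgeR adjusted p = 0.548). LOC105385535 (NW_011952138, 22154 to 29872) had -4.01 and -2.69 (difference -1.32 ± 0.60, edgeR adjusted p = 0.554). LOC105386543 had nearly equal changes, -3.29 ± 0.37 in females and -3.30 ± 0.37 in males. The median difference over the 53 genes ran from -1.03 without female 10 °C replicate 1 to -0.18 without female 25 °C replicate 4, and was -0.23 without male 10 °C replicate 2 and -0.31 without female 10 °C replicate 2. Without the pair of doubted libraries it was -1.04, with 0 members called, and with a replicate block it was 0.05, so its sign turned.

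**Figure D3:**
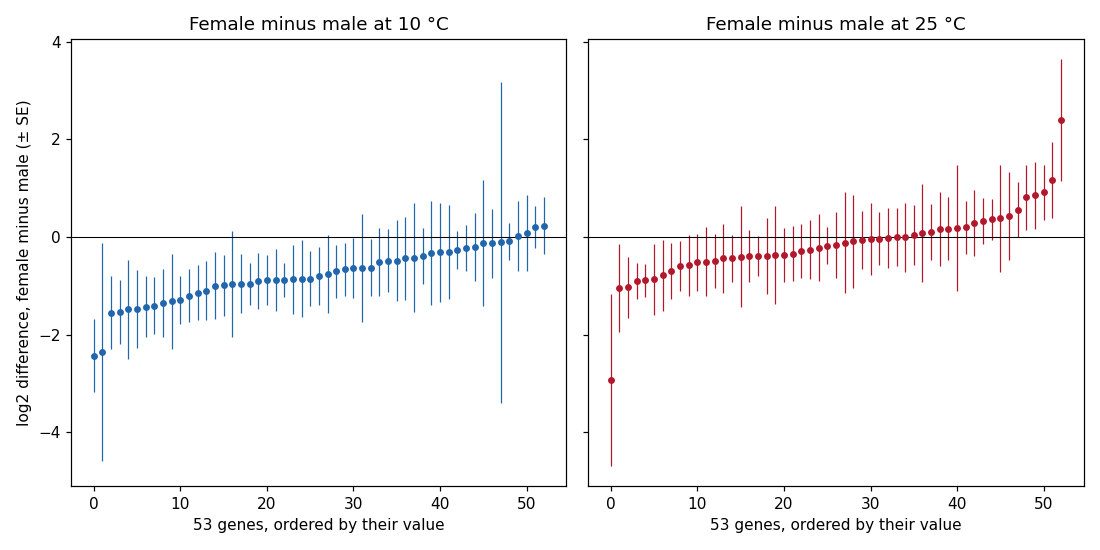
Log2 difference between females and males (points, with SE bars) for the 53 genes at 10 °C, left, and at 25 °C, right, each ordered by value; no gene passed the edgeR test. At 10 °C 49 of the 53 points lie below 0, and at 25 °C 35 do.

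Most of the genes are short. Their exon length had a median of 1054 bp, against 1642 bp over all tested genes, and 26 of 53 lay in the shortest of 4 equal classes of tested genes (at most 1043 bp). Only 3 lay in the longest class, above 2566 bp: LOC105385535 with 17 exons and 3719 bp, LOC105395943 with 16 exons and 3360 bp, and LOC105387993 with 2684 bp. Gene span had a median of 2553 bp in the 53 genes and 6367 bp in all tested genes, and the number of exons a median of 4 and 6. Single-exon models made up 7 of the 53 and 8.64% of all tested genes. Over the whole table the change with cold differed with exon length. The median log2 change with cold was -0.22 in the shortest class of all tested genes and 0.55 in the longest. Among the 53 genes it was -3.16 in the shortest class, -3.18 in the second, -2.53 in the third and -3.40 in the longest. The part of length in the choice of these genes was not tested.

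**Figure D4:**
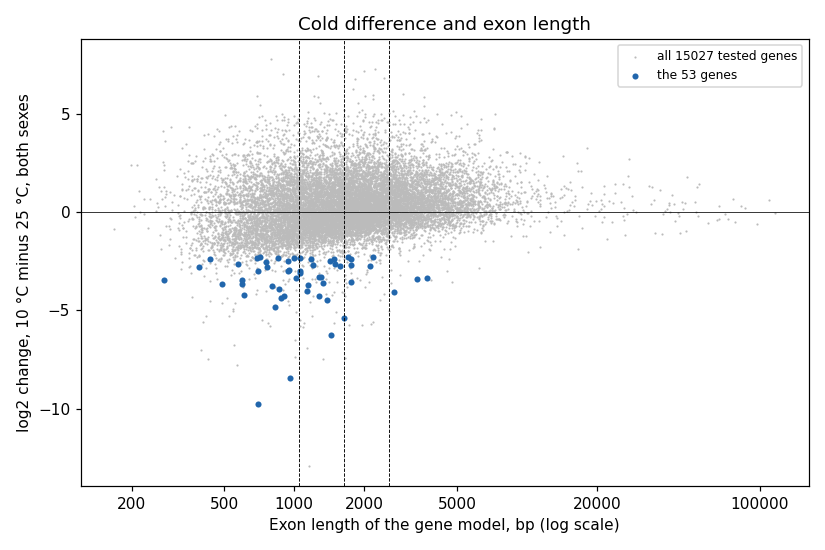
Log2 change with cold over both sexes, 10 °C minus 25 °C, against exon length in bp (log scale) for all 15027 tested genes (grey) and the 53 genes (blue), with dashed lines at the class limits of 1043, 1642 and 2566 bp. Of the 53 genes, 44 lie left of the middle line.

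The list also depended on the scale of the levels. On TMM-scaled CPM all 25 °C libraries still exceeded all 10 °C libraries for 46 of the 53 genes, and the rule then found 118 genes. In the authors' TPM values, which divide by exon length, this held for 40 of the 53 genes and the rule found 35 genes, 29 of them members. Without male 10 °C replicate 2 the rule found 97 genes and without female 25 °C replicate 2 it found 96.

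The kinds of reads differed among the members. Of the 53 genes, 47 had at least 90% uniquely mapped reads, against 81.0% of all tested genes. LOC105380426 and LOC105391985 had no uniquely mapped read, and LOC105386543 had 0.316% unique reads, so their reads may come from near-identical copies and cannot be assigned to these loci with certainty. LOC105380426 was at 25.7 to 80.6 CPM at 10 °C and at 147 to 342 CPM at 25 °C. It also overlaps LOC105380428 on the opposite strand and LOC105391985 overlaps LOC105391996 on its own strand. Fewer than 10% unique reads were found in these 3 of 53 members and in 2.58% of all tested genes. LOC105383936 had 25.0% unique reads. On unique reads alone the rule found 49 genes, 48 of them members. Intron reads were 1.52% of the reads of the median member, against 6.20% over all tested genes. Over the 7837 locus genes that met both level limits the median was 4.32%. The share was 63.6% for LOC105391599 and 48.2% for LOC105386207. At least 20% intron reads were found in 7 of 53 members and in 23.9% of all tested genes. On exon reads the rule found 50 genes, 48 of them members.

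Reads that cross a splice junction are part of the total reads that chose the genes, so their direction is largely set by the rule. Of 44 members with more than 1 exon and at least 20 junction reads, 37 had a mean junction level at 25 °C at least 3 times that at 10 °C. In LOC105387993 the mean junction level was instead 0.303 ± 0.489 CPM at 10 °C and 0.0991 ± 0.175 CPM at 25 °C, with overlapping libraries (SD, n = 6 each). It had 26 junction reads among 318 exon reads at 10 °C and 8 among 3284 at 25 °C, that is 8.18% and 0.244% of its exon reads. In LOC105381203, 2 of 162 exon reads crossed a junction at 10 °C and 0 of 3876 at 25 °C. Hardly any 25 °C read of these models of 6 and 4 exons thus crossed an annotated junction. Over all tested multi-exon genes with at least 100 exon reads, 4.61% had fewer than 5% junction reads, and among the members 3 of 46 did. In LOC105385735 junction reads were 86.4% of exon reads at 10 °C (51 reads) and 23.3% at 25 °C (546 reads). Whether reads were counted by strand is not stated in the labels or headers, so reads from the opposite strand may be included.

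The 53 genes lie on 45 scaffolds, and 1 pair are direct neighbours. LOC105383936 and LOC105383937 lie on the plus strand of NW_011952101, 78602 bp apart, with 4 exons each. LOC105383936 was at 0 to 2.99 CPM at 10 °C and 10.5 to 38.7 CPM at 25 °C, and LOC105383937 at 0 to 3.71 and 5.16 to 24.9 CPM. Both were at 0 reads in female 10 °C replicate 2 alone. Both also share reads with other loci (25.0% and 78.9% unique). LOC105393890 and LOC105393891 lie 4760 bp apart on the minus strand of NW_011952498, with 1 gene of the opposite strand between them. LOC105393890 averaged 30.8 CPM at 10 °C and 121.5 CPM at 25 °C, and LOC105393891 averaged 2.50 and 15.6 CPM. The gene between, LOC105393886, averaged 55.0 CPM at 10 °C and 67.7 CPM at 25 °C, with overlapping libraries. The other 6 pairs of members on a shared scaffold have from 2 to 35 features between them.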

How the data were processed

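Poly(A) RNA of pooled larvae was sequenced as paired reads, per the labels' protocols. For each library the authors deposited a table of whole-number counts per gene (total, unique, exon, intron and exon-exon reads), beside TPM and RPKM values and gene model properties such as exon length and scaffold position, per the file headers. The deposited RPKM values were not used for any result. The labels and headers name no aligner, counter, genome build or strand setting (not given in the sources used here). Positions are those of the deposited tables.

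CPM was computed from total gene reads and column sums without TMM. Counts of 12 libraries were fitted with edgeR 4.0.16 (R 4.3.3; TMM, filterByExpr with a minimum count of 10 and total of 15, quasi-likelihood with robust dispersion, 4 group means), with p-values adjusted by Benjamini-Hochberg over 15027 genes and a threshold of 0.05. SE is the size of the log2 change over the square root of F. Scripts were tested on simulated data. DESeq2 1.42.0, other filters, scalings, read classes and omitted libraries were tried as alternatives.

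The members and lists were chosen with earlier results of these data known. Named by rule were the 12 members with the largest ratio, the 8 with the highest 25 °C mean, any called between the sexes, the 2 nearest each limit and the 2 genes just outside it, adjacent members, and the 4 widest and 4 narrowest at 25 °C. LOC105386543, LOC105380895, LOC105385535, LOC105395943, LOC105386207, LOC105391985, the pair on NW_011952498 and all neighbours were named after their values were seen. Keyword classes of product names were planned but not applied, since the gene table used gives no product names. The alternatives chosen after seeing the data are the comparison of 10 °C with 25 °C and the ratios of named genes under other settings, and the sex overlap on TMM-scaled CPM and without the doubted libraries.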

Additional observations from a re-analysis of the deposited data

How the results depend on the processing

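The number of genes meeting the rule was 53, with 118 on TMM-scaled CPM (46 of them members), 35 on deposited TPM (29 members), 87 with a ratio of at least 2 and 28 with at least 5, and from 45 to 97 when single libraries were left out. The median log2 ratio of 10 °C to 25 °C means was -2.45 in CPM, -3.07 in TMM-scaled CPM and from -2.66 to -2.28 without single libraries. Of 404 alternative ratios for 27 named members, 27 moved beyond the replicate spread and 0 reversed. Most of the moves came with TMM scaling, which raised the ratios of most named members. Over the 53 genes the median ratio of 25 °C to 10 °C means was 8.41 in TMM-scaled CPM, against 5.455 in CPM. The number of members called between the sexes at 25 °C was 0, and from 0 to 2 without single libraries, the 2 coming without female 25 °C replicate 4. The female minus male sum at 25 °C was -174 CPM and ran from -563 to 206 CPM without single libraries, reversing to 206 CPM without male 25 °C replicate 2. The cause of these changes was not tested.

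Replicate numbers were not used as pairs in the main fit. At 10 °C the deviations of same-numbered females and males from their group means correlated at -0.539, -0.397 and -0.739, and at 25 °C at -0.00981 and -0.0914. The 10 °C groups of 3 hold the doubted libraries, so these values cannot settle whether samples were paired. Between the temperatures they correlated at 0.129 and 0.573 in females (replicates 1 and 2) and at -0.0684, 0.0842 and 0.124 in males, so not every pair exceeded 0.1. With a replicate block, 0 members were called in each of the 3 sex comparisons, and the members' median sex difference in cold response was 0.05, against -0.65. Without both doubted libraries the counts were also 0. Depth limits the scarce genes most, since 3 reads correspond to 0.0997 to 0.295 CPM.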
